A study of Homo sapiens with 6 samples.

Results

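The genes described here are 10 enzymes that make asparagine, proline and cysteine or that supply and drain the amino groups and carbon around those routes: ASNS, ALDH18A1, PYCR1, CBS, CTH, GPT2, BCAT1, PCK2, ASS1 and OAT. They were chosen by gene symbol in the deposited count table, and all 10 were found among its 19470 symbols. The table came from RNA sequencing of A549 cells, an established human lung adenocarcinoma line, labelled wild type in every library. Dormant cells (3 libraries, titled SF) had been given a treatment to induce dormancy, and activated cells (3 libraries, titled OC) had been exposed to medium conditioned by osteoclasts, the cells that resorb bone. The labels used here do not say how dormancy was induced, whether both groups had the same base medium, or whether replicate libraries stand for separate cultures. The contrast can thus hold an effect of the medium itself, and p-values reflect only the spread between these libraries, perhaps a technical one. The study compared the groups to find genes that differ between dormancy and activation.

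Total counts per library lay between 34128471 and 36667725. Of 12 markers of A549 and epithelial cells, 11 had mean levels above 30 CPM (counts scaled to library size, adjusted by TMM factors) in both groups, and EPCAM was low, at 1.28 ± 0.513 CPM (SD, n = 3) in dormant and 0.611 ± 0.185 CPM in activated cells. The summed level of 21 osteoclast and myeloid markers ran from 245 to 257 CPM in dormant and from 371 to 382 CPM in activated libraries. Of these markers 8 had 0 counts in every library, among them the defining genes CALCR, OCSTAMP, DCSTAMP and TYROBP. TCIRG1 and CD68, which are not restricted to those cells, made up most of the sum, with 67.8 ± 1.48 and 135 ± 5.75 CPM in dormant and 197 ± 2.50 and 152 ± 3.82 CPM in activated cells. Of the 11 markers tested, 6 were higher and 4 lower in activated cells by edgeR's quasi-likelihood test at an adjusted threshold of 0.05 (5 and 5 with total counts). Among all 13336 genes tested, 36.5% were higher and 37.2% lower, so a call was common. CD14, a monocyte surface protein, was 8.37-fold higher, from 1.10 ± 0.396 to 9.25 ± 0.478 CPM. LAPTM5, CSF1R and MMP9 were higher as well (9.29-fold, 8.42-fold and 5.28-fold), at mean levels of 2.10, 0.774 and 0.770 CPM in activated cells. LAPTM5, CSF1R and MMP9 were let through the low-count filter by their activated libraries alone, so only a rise was possible. ATP6V0D2, an osteoclast proton pump subunit, went the other way, from 19.3 ± 1.72 to 0.0707 ± 0.0982 CPM. ACP5, the osteoclast acid phosphatase, was 10.8-fold lower at low levels, from 0.563 ± 0.235 to 0.0486 ± 0.0609 CPM. ATP6V0D2 and ACP5 passed the low-count filter through their dormant libraries alone, so only a fall was possible. Of 7 osteoblast and stromal markers 4 were tested. COL1A1, PDGFRA and DCN were higher in activated cells, PDGFRA by 6.93-fold to 0.824 ± 0.241 CPM and DCN with 1 dormant and 46 activated counts, and RUNX2 was lower. For PDGFRA and DCN only a rise was possible, since their activated libraries alone let them through the low-count filter. The summed level of these 7 ran from 18.5 to 23.3 CPM in dormant and from 17.5 to 18.2 CPM in activated libraries. The part of other cells in the results below was not tested beyond these values. In bulk RNA, fewer cells of a type and less RNA per cell cannot be told apart.

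Cells can make several amino acids that are often called nonessential. Asparagine synthetase (ASNS) moves an amide group from glutamine to aspartate. Proline is built from glutamate by the bifunctional enzyme ALDH18A1 and then by pyrroline-5-carboxylate reductases such as PYCR1. Cysteine is built from homocysteine and serine by the transsulfuration enzymes CBS and CTH. Several of these genes are textbook targets of ATF4, a transcription factor whose translation increases when amino acids are short. It binds composite C/EBP-ATF elements, of which the one in the ASNS promoter is a classic case.

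The core letters of that element, TGATGNAA on either strand, were searched in RefSeq promoter windows of GRCh38.p14 that run from 250 bases before to 50 bases after a transcript start. Windows were found for 8 of the 10 genes, with none for PYCR1 and GPT2. A match was present for ASNS and BCAT1, and for 4.46% of 27305 genes with a window. The letters searched are the core of the ASNS element, so the match in ASNS followed from the choice of letters. BCAT1 had 5 windows in which a match could occur, and whether matches were enriched was not tested. The same 2 genes matched when only the 250 bases before the start were searched. Both stretches are shown because they carry the match in 2 of the genes that fell most below. Each is 30 bases long and written 5′ to 3′ on the gene's strand, with the match in capitals.
ASNS, minus strand, chr7:97872458-97872487: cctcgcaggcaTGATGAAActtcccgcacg
BCAT1, minus strand, chr12:24949131-24949160: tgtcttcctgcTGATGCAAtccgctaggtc
In ASNS the match lay 68 to 61 bases before the transcript start at position 97872408, one of 2 windows listed. In BCAT1 it lay 48 to 41 bases before the start at position 24949101, one of 5 windows listed for that gene. Both stretches also overlap exons of other transcripts of the same genes in GENCODE release 29. A match of letters describes the window and does not show that a factor binds there.

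In activated cells the RNA of ASNS, BCAT1, CBS and PCK2 was 3.82-fold to 15.5-fold lower, PYCR1 and ASS1 fell less, and ALDH18A1 and OAT rose. The proline route thus held genes that moved in opposite directions, and of the cysteine route CBS fell while CTH did not pass. Of the 10 enzymes, all of which had enough counts to be tested, 6 fell, 2 rose and 2 did not pass the threshold (edgeR's quasi-likelihood test, Benjamini-Hochberg adjusted p of 0.05). Scaled by total counts, 7 fell, 1 rose and 2 did not pass. Among all 13336 genes tested, 73.7% passed that threshold, 37.2% lower and 36.5% higher, so passing was common. A fall of at least 2-fold was rarer, and was seen for 4 of the 10 enzymes (ASNS, BCAT1, CBS and PCK2) against 11.0% of genes tested. The groups did not overlap for 8 of the 10, against 76.5% of genes tested. The median log2 fold change of the enzymes was -0.61, beside -0.02 for all genes tested. The 10 enzymes were chosen with earlier results of these data known, so these shares and this median are description only.

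**Figure D1:**
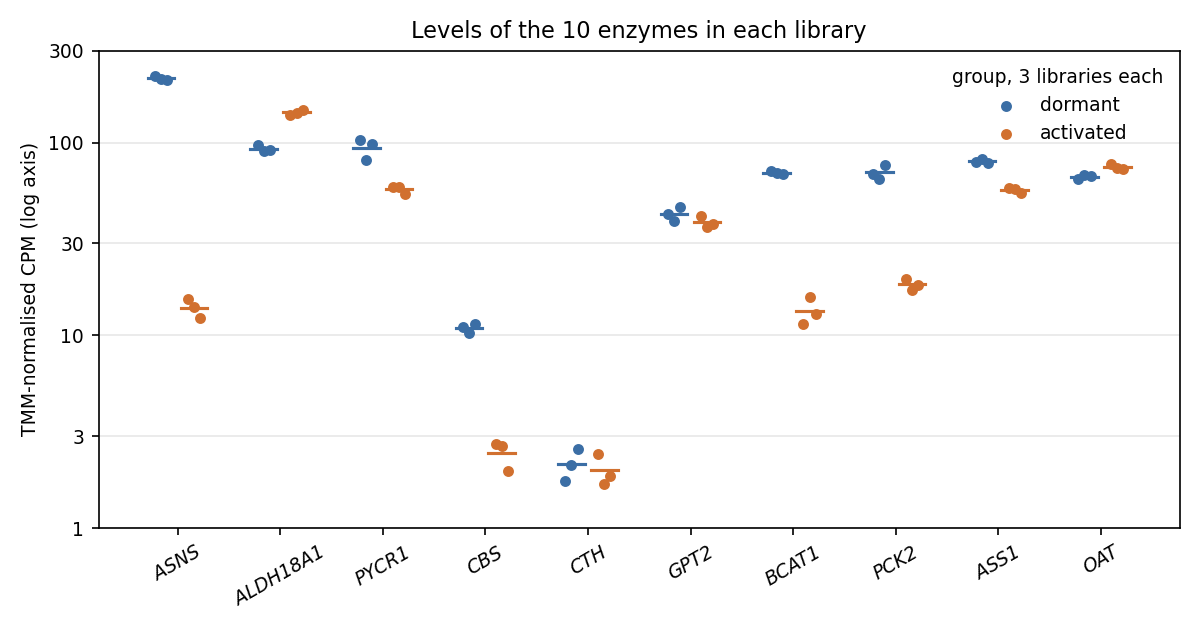
TMM-normalised CPM (log axis) of the 10 enzymes in each of 3 dormant and 3 activated libraries, with points for libraries and short lines for group means. ASNS went from above 200 to below 20 CPM, ALDH18A1 and OAT were higher in activated cells, and the libraries of the 2 groups overlap for CTH and GPT2.

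ASNS, which makes asparagine from aspartate and glutamine, had the largest change of the 10. The gene lies on chromosome 7, from 97851677 to 97928441. Its levels were 221, 213 and 212 CPM in dormant libraries 1 to 3 and 15.5, 14.0 and 12.3 CPM in activated libraries 1 to 3. Every dormant library was thus more than 10 times above every activated one. The gene fell 15.5-fold (log2 fold change -3.95 ± 0.07 SE, adjusted p = 7.90e-15 in edgeR's quasi-likelihood test), the 78th largest fall among 13336 genes. It rested on 24152 dormant and 1418 activated counts, so counting error was small. A processed transcript annotated on the same strand shares 44.6% of the exon bases of ASNS and is not a row of the count table. Reads of the shared bases could come from either, and the sources used here do not say how they were counted.

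The proline enzymes moved in opposite directions. ALDH18A1, which carries out the first 2 steps from glutamate (chromosome 10, 95605941 to 95656711), had 96.7, 90.5 and 91.4 CPM in dormant and 140, 143 and 149 CPM in activated libraries. All activated libraries were above all dormant ones, and the gene rose 1.55-fold (log2 fold change 0.63 ± 0.05 SE, adjusted p = 3.49e-08). PYCR1, the mitochondrial reductase of the last step (chromosome 17, 81932391 to 81937300), had 103, 80.9 and 98.9 CPM in dormant and 58.7, 58.8 and 54.3 CPM in activated libraries. Dormant replicate 2 was the lowest of its group but stood above every activated library. PYCR1 fell 1.65-fold (log2 fold change -0.72 ± 0.08 SE, adjusted p = 9.51e-07). An antisense gene covers 15.6% of its exon bases, and without strand reads of the pair cannot be told apart. The coding gene MYADML2 on the same strand shares 14.1% of them and is a row of the count table. Whether reads of the shared bases were counted for PYCR1 or left out is not known.

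PYCR3, a cytosolic pyrroline-5-carboxylate reductase, moved opposite to PYCR1. It rose 3.39-fold, from 14.2 ± 1.5 to 48.3 ± 1.72 CPM (SD, n = 3; log2 fold change 1.76). Levels of different genes were compared per length, in FPKM (fragments per kilobase of gene, scaled to library size). PYCR1 stood at 45.7 ± 5.30 and PYCR3 at 4.47 ± 0.501 FPKM in dormant cells. In activated cells they stood at 25.2 ± 1.16 and 13.8 ± 0.482 FPKM. PYCR1 thus went from 10.4 to 1.84 times the FPKM of PYCR3.

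Of the transsulfuration pair, CBS fell and CTH showed no change that passed. CBS, which joins homocysteine and serine into cystathionine (chromosome 21, 43053191 to 43076873), had 11.1, 10.3 and 11.5 CPM in dormant and 2.72, 2.65 and 1.98 CPM in activated libraries. The groups were far apart, and CBS fell 4.46-fold (log2 fold change -2.16 ± 0.16 SE, adjusted p = 1.34e-08). CTH, which releases cysteine from cystathionine (chromosome 1, 70411268 to 70439851), was the least abundant enzyme by CPM. Its counts were 66, 83 and 92 in dormant and 83, 59 and 61 in activated libraries, and the groups overlapped. Its log2 fold change was -0.11 ± 0.27 SE (adjusted p = 0.718), so a change of moderate size in either direction was not detectable at this depth.

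CBS has a near-identical copy annotated in the same genome build as CBSL, and the division of reads between them was uneven. CBSL had 142, 196 and 3 counts in dormant and 0, 0 and 31 counts in activated libraries. It took 25.4%, 32.9% and 0.723% of the joint count of the pair in the dormant libraries and 32.3% in activated replicate 3. The joint counts were 558, 595 and 415 in dormant and 93, 92 and 96 in activated libraries. The activated libraries are closer to each other in the joint count than in CBS alone, where replicate 3 is lowest, whereas the dormant libraries are further apart. In a fit chosen after the data were seen, with both symbols added together, the fall was 5.04-fold (log2 fold change -2.33 ± 0.15 SE, adjusted p = 2.60e-09). Values of CBS and CBSL taken apart are therefore uncertain.

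**Figure D2:**
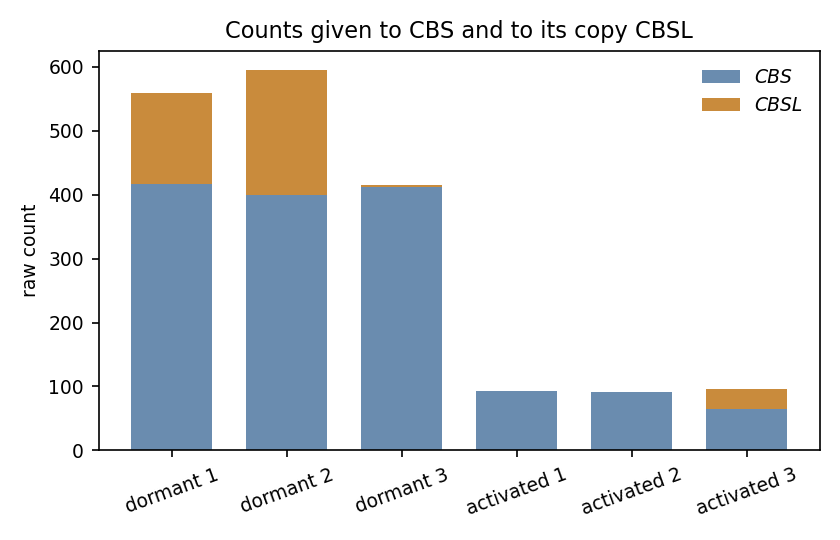
Raw counts of CBS with those of its copy CBSL stacked on top, for 3 dormant and 3 activated libraries. CBSL holds 142 and 196 counts in dormant replicates 1 and 2 but 3 in replicate 3, and 31 in activated replicate 3 but 0 in the others, while the joint count is lower in every activated library.

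The aminotransferases also differed from each other. BCAT1, the cytosolic enzyme that takes amino groups from leucine, isoleucine and valine (chromosome 12, 24810024 to 24949340), had 71.6, 69.7 and 68.6 CPM in dormant and 11.4, 15.8 and 12.9 CPM in activated libraries. No library of one group came near the other, and BCAT1 fell 5.23-fold (log2 fold change -2.39 ± 0.09 SE, adjusted p = 8.34e-12). GPT2, the mitochondrial enzyme that makes alanine from pyruvate and glutamate (chromosome 16, 46884362 to 46931289), had 42.8, 39.1 and 46.4 CPM in dormant and 41.8, 36.6 and 37.8 CPM in activated libraries. The groups overlapped and the log2 fold change of GPT2 was -0.14 ± 0.08 SE, short of the threshold (adjusted p = 0.102). This call turned with scaling. Scaled by total counts alone, GPT2 passed as lower (log2 fold change -0.28, adjusted p = 0.00333), and it also passed without dormant replicate 2 (-0.20, adjusted p = 0.0364) and without activated replicate 1 (-0.20, adjusted p = 0.0285).

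PCK2, the mitochondrial enzyme that turns oxaloacetate into phosphoenolpyruvate (chromosome 14, 24094171 to 24104125), had 68.9, 64.7 and 76.9 CPM in dormant libraries. It had 19.6, 17.3 and 18.3 CPM in activated libraries, all far below the dormant range. PCK2 fell 3.82-fold (log2 fold change -1.93 ± 0.08 SE, adjusted p = 1.28e-11). Its cytosolic counterpart PCK1 had no read in any of the 6 libraries. A count of 0 leaves room for at most 0.0268 CPM in the dormant and 0.0295 CPM in the activated group. PCK2 was thus the only one of the pair detected in either group.

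ASS1, which joins citrulline and aspartate on the way to arginine (chromosome 9, 130444707 to 130501274), had 79.1, 82.5 and 78.8 CPM in dormant and 58.1, 57.2 and 54.7 CPM in activated libraries. The groups were apart, and ASS1 fell 1.41-fold (log2 fold change -0.50 ± 0.05 SE, adjusted p = 7.48e-07). OAT, which links ornithine to the proline route (chromosome 10, 124397303 to 124418923), had 64.9, 68.2 and 66.9 CPM in dormant and 77.1, 73.7 and 73.2 CPM in activated libraries. It rose 1.12-fold (log2 fold change 0.16 ± 0.05 SE, adjusted p = 0.0118), the smallest change that passed among the 10. With total counts OAT no longer passed (log2 fold change 0.02, adjusted p = 0.703). Total-count scaling moved the median of all genes tested by -0.14 on the log2 scale, about the size of the change in OAT. ASS1 and OAT have processed pseudogenes elsewhere in the genome, so some of their reads may have been shared or lost in counting.

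The order of the enzymes by length-normalised level also changed. In dormant cells ASNS was first at 70.8 ± 1.10 FPKM, followed by PYCR1 at 45.7 ± 5.30 and ASS1 at 39.1 ± 1.36 FPKM, whose library ranges overlapped. ALDH18A1 (26.6 ± 0.753 FPKM) and PCK2 (26.3 ± 2.23 FPKM) overlapped next. OAT, GPT2, BCAT1, CBS and CTH followed with ranges apart, down to 0.945 ± 0.180 FPKM for CTH. In activated cells ALDH18A1 was first at 37.4 ± 1.17 FPKM, then PYCR1 and ASS1, which again overlapped at 25.2 ± 1.16 and 25.1 ± 0.786 FPKM. ASNS was in place 7 at 4.15 ± 0.476 FPKM, below OAT, GPT2 and PCK2. BCAT1, CTH and CBS came last, with neighbouring ranges overlapping, between 1.01 ± 0.167 and 0.674 ± 0.113 FPKM.

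Summed over the 10 enzymes, the dormant libraries held 248, 238 and 248 FPKM and the activated libraries 127, 125 and 123 FPKM. ASNS made up 28.95% ± 0.866 of the sum (SD, n = 3) in dormant and 3.31% ± 0.321 in activated cells. ALDH18A1 went from 10.9% ± 0.298 to 29.9% ± 1.48. The share of PYCR1 was 18.7% ± 1.74 in dormant and 20.2% ± 0.655 in activated cells, with ranges that overlapped. FPKM values carry the total-count scaling, so these sums include its shift against TMM, whereas the shares do not.

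**Figure D3:**
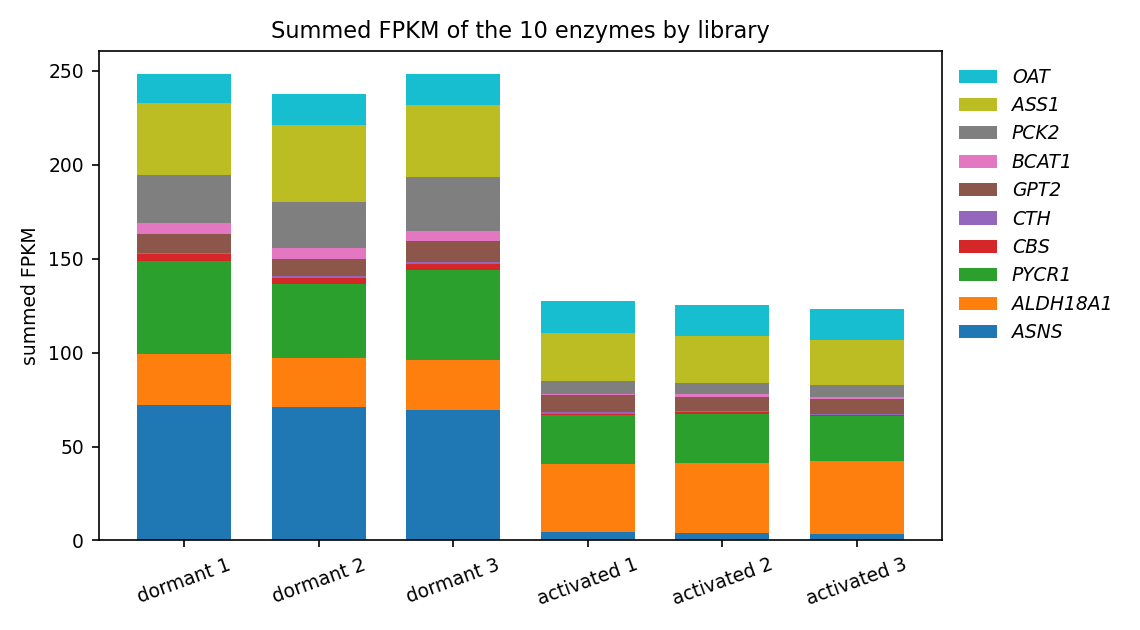
Summed FPKM of the 10 enzymes in each library, with a coloured segment per gene and bars that start at 0. The dormant bars reach 238 to 248 FPKM and the activated bars 123 to 127 FPKM, and the ASNS segment at the base shrinks from 28.95% to 3.31% of the bar.

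Each of 9 pairs, of which 8 are reported, set an enzyme beside a partner at the same or an adjoining step, and the share of the pair's FPKM taken by the enzyme was compared between groups. The share of ASNS beside GLUL, glutamine synthetase, was 89.2%, 89.4% and 88.5% in dormant and 54.4%, 51.0% and 49.6% in activated libraries. The share of ASS1 beside ASL, the next enzyme towards arginine, went from 88.1% ± 0.950 to 66.8% ± 1.25. That of PYCR1 beside PYCR3 went from 91.0% ± 1.89 to 64.7% ± 1.87, and that of BCAT1 beside the mitochondrial BCAT2 from 14.6% ± 0.893 to 3.44% ± 0.540. The share of CTH beside CBS went the other way, from 22.0% ± 3.02 to 54.0% ± 5.14, with the reads of CBSL left out. In all 5 of these pairs the groups did not overlap, and each gave p = 0.10 in a 2-sided exact permutation test, the smallest that 3 against 3 libraries allow (0.15 after Benjamini-Hochberg adjustment over 9 pairs). None could therefore pass a threshold of 0.05. GPT2 took at least 97.2% beside its cytosolic counterpart GPT, which had 0 to 18 counts per library, and its groups overlapped (exact permutation p = 0.60). PCK1 and PRODH, which starts the breakdown of proline, had 0 counts throughout, so PCK2 and OAT made up the whole of their pairs.

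**Figure D4:**
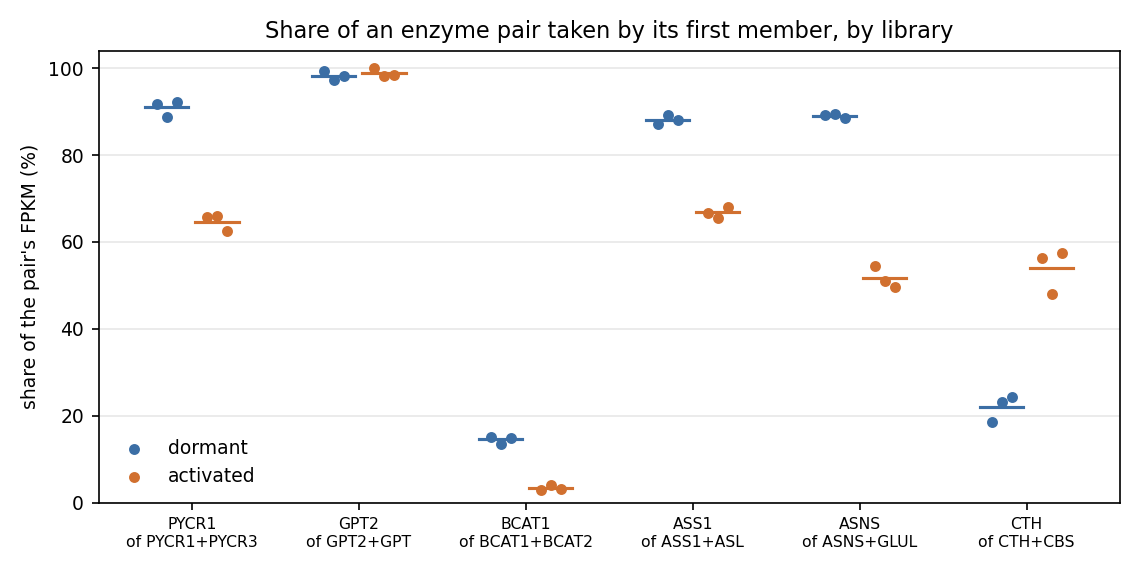
Share (%) of a pair's summed FPKM taken by its first gene in each library, with short lines for group means, for 6 pairs whose partner was detected. The points of the groups are apart in 5 pairs and overlap for GPT2 with GPT, and among the 5 only the share of CTH beside CBS is higher in activated cells.

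Genes around these enzymes were counted in lists, beside which the 73.7% of all genes that passed is the background. All 13 regulators of the amino acid response were tested, and 10 fell, 1 rose and 2 did not pass (median log2 fold change -1.43). NUPR1, a stress-induced regulator, fell from 81.3 ± 1.47 to 0.881 ± 0.244 CPM, and ATF3, a transcription factor induced by stress, from 72.2 ± 2.15 to 0.862 ± 0.369 CPM. EIF2AK1, a kinase of the initiation factor eIF2, rose 1.18-fold, a call lost with total counts (adjusted p = 0.131, log2 fold change 0.10). ATF4, named here outside the rule because it is known to bind elements of the kind searched for above, fell from 631 ± 19.6 to 234 ± 8.34 CPM, a 2.70-fold change in its RNA. ATF4 is regulated mainly in translation, which these data do not measure. Whether ATF4 had a part in the changes of the enzymes was not tested. EIF2AK4 and ATF5 were the 2 regulators that did not pass (log2 fold change 0.11 and -0.08).

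Of 10 genes for asparagine, aspartate, glutamate and glutamine, 7 were tested, of which 5 rose and 2 fell (median 0.67). ASRGL1, which breaks down asparagine, rose 2.50-fold from a low level of 1.66 ± 0.361 CPM. GOT1, the cytosolic aspartate aminotransferase, fell from 135 ± 0.343 to 34.6 ± 6.12 CPM, and GLUL fell 2.05-fold. Of 12 genes for proline and ornithine, 8 were tested, of which 4 rose, 2 fell and 2 did not pass (median 0.57). P4HA1, which hydroxylates proline residues in collagen, rose 3.66-fold and PYCR3 rose as given above. ODC1, which starts polyamine synthesis from ornithine, fell from 317 ± 19.9 to 135 ± 5.26 CPM.

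Of 20 genes for methionine and cysteine, 16 were tested, of which 8 rose, 4 fell and 4 did not pass (median 0.15, and 0.01 with total counts). SQOR, which oxidises sulfide, rose 1.85-fold and CSAD, on the route from cysteine to taurine, 2.05-fold. CHAC1, which degrades glutathione, fell 8.53-fold, to 2.92 ± 0.396 CPM in activated cells. MAT1A, the liver form of methionine adenosyltransferase, was let through the low-count filter by its dormant libraries alone, so only a fall was possible. It had 60 dormant and 5 activated counts, 4 of the latter in replicate 1. Its log2 fold change of -3.36 became -4.88 without that library.

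Of 10 genes for alanine and branched chains, 7 were tested, of which 4 rose and 3 did not pass (median 0.23). With total counts 3 rose and 2 fell. BCKDK, the kinase that switches off the branched-chain keto acid dehydrogenase, rose 2.88-fold, and BCKDHA, a subunit of that complex, 2.39-fold. BCAT2, the mitochondrial counterpart of BCAT1, had 71.3 ± 5.01 CPM in dormant and 65.2 ± 1.89 CPM in activated cells and missed the threshold (adjusted p = 0.0665, log2 fold change -0.13), but passed with total counts (-0.27, adjusted p = 0.00128). Of 10 genes for the urea cycle and arginine, 7 were tested, of which 1 rose, 3 fell and 3 did not pass (median -0.20). ASL, the gene that rose, went from 10.7 ± 0.764 to 28.0 ± 2.27 CPM, opposite to ASS1. SLC7A1, an arginine importer, fell 1.92-fold and CPS1, which starts the urea cycle, 1.61-fold. Of 8 other genes for phosphoenolpyruvate and gluconeogenesis, 5 were tested and all 5 rose (median 0.93), opposite to PCK2. PC, pyruvate carboxylase, rose 4.59-fold, from 4.80 ± 0.680 to 22.1 ± 1.38 CPM, and ENO1, an enzyme of glycolysis, rose 1.996-fold.

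**Figure D5:**
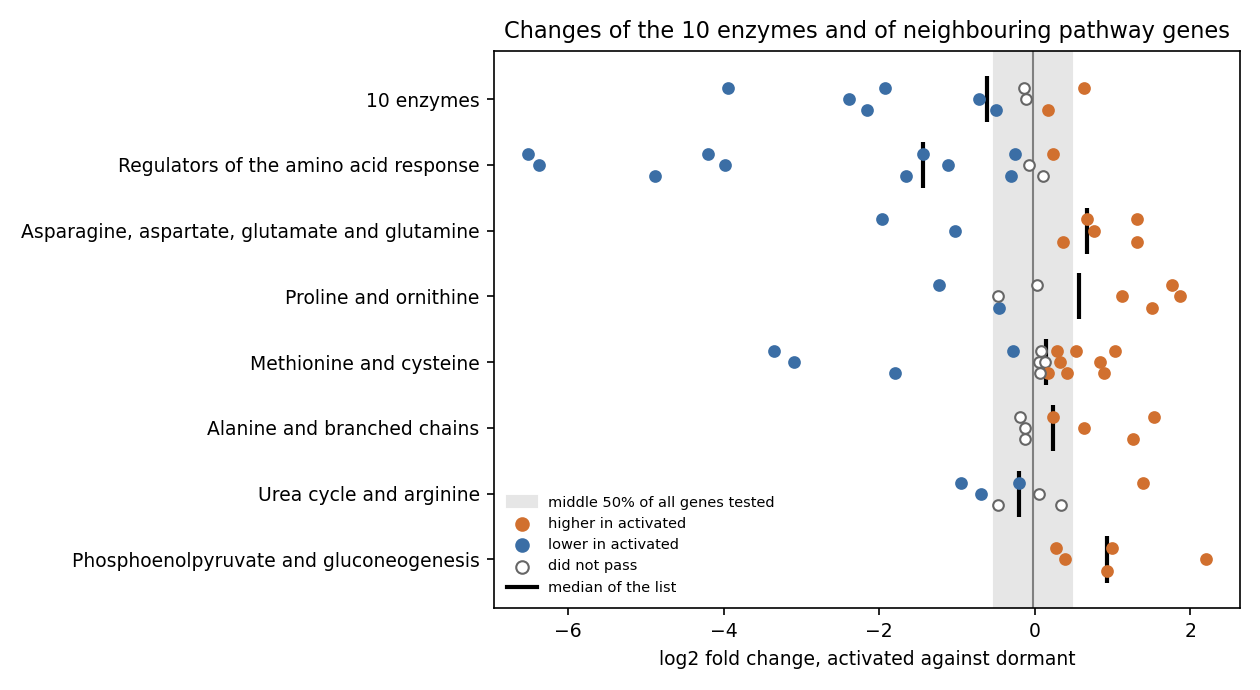
Log2 fold change (activated against dormant) of the 10 enzymes and of the tested genes of 7 lists, with a point per gene coloured by its call and a black bar at each median, beside the middle 50% of all genes tested in grey. The 10 enzymes (median -0.61) and the regulators of the amino acid response (median -1.43) reach furthest to the left, while 5 of 7 asparagine and glutamate genes and all 5 tested genes beside PCK2 lie on the right.

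Genes whose pattern over the 6 libraries was most like that of 3 enzymes were sought among 10957 other genes whose log2 CPM averaged 2 or more, by the root-mean-square distance of log2 values centred per gene. With 2 groups this distance follows mainly the size of the group difference. For ASNS the nearest were PPP1R15A (distance 0.12), ISG20 (0.15) and PPL (0.17), with log2 fold changes of -3.98, -3.71 and -3.90. For PYCR1 they included DESI2 (0.05) and ULK4 (0.06), with log2 fold changes of -0.68 and -0.80. For CTH they were CNRIP1 (0.11), RABL2A (0.11) and SCFD1 (0.12), and none of these 3 passed the threshold (adjusted p = 0.885, 0.352 and 0.755).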

How the data were processed

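The submitters' processing notes list the build GRCh38 and the tools HISAT2, HTSeq and fastp. For versions, annotation and strand setting, the sources used here give nothing. The authors deposited whole-number counts per gene symbol and FPKM values. For all 10754 genes with at least 100 counts in every library, the deposited FPKM equalled count over library total times a constant per gene, within a tolerance of 0.001 of its value. Replicates were further apart than sampling noise (chi-square per degree of freedom 4.82 to 21.8), which does not show that they are separate cultures. Each library was counted once.

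The main test was edgeR 4.0.16 (R 4.3.3), quasi-likelihood, with TMM factors, edgeR's default low-count filter and Benjamini-Hochberg adjustment over all 13336 genes tested, at a threshold of 0.05. The standard error is the log2 fold change over the square root of F. Levels are TMM-normalised CPM. Shares used FPKM. The limit of 3 counts behind a 0 covers counting error only.

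Alternatives were DESeq2 1.42.0, limma 3.58.1 (voom, or log2(FPKM + 1) and log2(FPKM + 0.1), filtered at a mean of 0.5 FPKM or unfiltered), other scalings and filters, a replicate block and leaving out each library. The sum of CBS and CBSL was added after the data were seen. The 10 genes and all lists were chosen with earlier results of these data known. In each list the 2 largest rises and 2 largest falls past the threshold and the pair partners are named, except a few genes that are not reported here. All positions come from the RefSeq table of GRCh38.p14 and exon overlaps from GENCODE release 29.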

Additional observations from a re-analysis of the deposited data

How the results depend on the processing

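Across 180 values of the 10 enzymes under the alternatives, 170 changed no call, 6 gained one (GPT2) and 4 lost one (OAT). GPT2 passed as lower with total counts (-0.28), filtered log2(FPKM + 1) (-0.25), log2(FPKM + 0.1) (-0.28) and unfiltered log2(FPKM + 1) (-0.25). Leaving out 1 library gave GPT2 values from -0.201 to -0.0761, and it passed without dormant replicate 2 or activated replicate 1. In the same 4 settings OAT missed the threshold, at 0.0237, 0.0225, 0.0238 and 0.0225, so 1 enzyme rose there and not 2. CTH, which never passed, changed sign without dormant replicate 3 (0.04). Log2(FPKM + 1) shrank the falls of CBS to -1.37 and BCAT1 to -1.77, as a pseudocount does at low FPKM. With raw counts in place of FPKM, which leaves gene length in, the share differences in percentage points were -32.5 for PYCR1 with PYCR3, -32.6 for BCAT1 with BCAT2 and -46.6 for ASNS with GLUL. With the replicate block 9789 genes passed and no call of the 10 enzymes changed. Libraries sharing a number deviated with correlations of -0.02, 0.02 and -0.01, and the numbers were therefore not used as pairs. Low counts limit CTH and MAT1A, and the uneven division of reads with CBS limits CBSL.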
